A study of Mus musculus with 63 samples.

Results

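Basal progenitors of the mouse dorsal cortex were compared between E17.5 and E15.5, ages in days of embryonic development, in embryos labelled Ski knock-out. The libraries were chosen by their labels alone, cell type and age, and number 7 of the 63 in the series, with 3 of E15.5 and 4 of E17.5. All 23078 genes in the table were considered, and 15231 of them reached at least 1 TPM (a transcript share scaled by transcript length and library total) in at least 3 of the 63 libraries and were tested. Both groups are Ski knock-out on a C57Bl/6 background and carry the Tbr2::GFP transgene, by which the dissociated cells were sorted for GFP. The 2 cell types set beside them share the knock-out and the background: newborn neurons, also from Tbr2::GFP embryos (3 libraries of E15.5 and 4 of E17.5), and neural stem cells from Hes5::GFP embryos (3 libraries at each age). The labels do not say how Tbr2::GFP cells were divided into basal progenitors and newborn neurons, what kind of allele the knock-out is, or whether libraries came from separate embryos. The p-values below therefore measure the spread between libraries within groups, which may be technical. That spread is pooled over the 19 groups of cell type and age in the 63 libraries. No wild type was analysed here, and no value below measures an effect of Ski. Every library is labelled female, but Y-linked transcripts reached 10 TPM in 2 of the 3 E15.5 and 3 of the 4 E17.5 libraries.

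Basal progenitors, also called intermediate progenitors, arise from radial glia, leave the ventricular surface and divide mostly into neurons. They are defined by Eomes (also named Tbr2), a T-box transcription factor, and they pass through proneural factors such as Neurog2 on the way to becoming neurons. Over development the cortex makes deep-layer neurons first and upper-layer neurons later, and its stem cells then turn to making glia.

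Markers of the label were set against the other cell types. Eomes was at 516, 440 and 490 TPM in the E15.5 libraries and at 656, 472, 513 and 480 TPM in those of E17.5, and the groups overlapped. In newborn neurons Eomes averaged 71.5 ± 25.8 TPM at E15.5 and 17.2 ± 2.12 TPM at E17.5 (SD, n = 3 and 4). In neural stem cells it averaged 320 ± 48.7 TPM at E15.5 and 164.9 ± 59.6 TPM at E17.5 (SD, n = 3 each). Neurog2 did not set the stem cells of E15.5 apart, at 253 ± 68.6 TPM against 230 ± 38.8 TPM in basal progenitors (SD, n = 3 each). Hes5, the Notch target whose reporter marked the stem cells, stayed between 1.30 and 4.35 TPM in the 7 libraries, against a mean of 107 ± 68.7 TPM in stem cells of E15.5 and of 34.3 ± 14.1 TPM in those of E17.5 (SD, n = 3 each). Transcripts of neurons were abundant as well, with Tubb3, a neuronal tubulin, between 1619 and 2470 TPM. Ski itself was listed at 26.4, 22 and 25.2 TPM at E15.5 and at 27.5, 27.1, 29.1 and 33.3 TPM at E17.5, and at 17.2 to 53.1 TPM over all 63 libraries. With no wild type here, this level cannot check the knock-out label.

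Some properties of the libraries moved with age or with single libraries. Genes listed above 0 TPM numbered 16823 to 17018 at E15.5 and 17480 to 21890 at E17.5. The rank correlation of log2(TPM + 1) with transcript length was 0.0496, 0.0255 and 0.0471 at E15.5, and 0.0517, -0.0256, 0.0421 and 0.0553 in E17.5 replicates 1 to 4, so replicate 2 stood apart. With this correlation as a covariate, 348 genes were higher and 37 lower by the rule given below, against 280 and 40 without it. Summed TPM of 15 endothelial and pericyte markers was 22.4, 11.3 and 27.5 at E15.5 and 54.0, 40.5, 247 and 40.3 at E17.5, with replicate 3 far above the rest.

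A gene was called when its Benjamini-Hochberg adjusted p from limma, over all genes tested, was under 0.05 and its level differed at least 2-fold. Changes are given as log2 of (TPM + 1), E17.5 minus E15.5, with their standard errors, and understate the change of low genes. By this rule 280 genes were higher at E17.5, 1.84% of those tested, and 40 were lower, 0.263%, or 2.1% in either direction. By the adjusted p alone, 7.7% were higher and 0.965% lower. All E17.5 libraries lay above all E15.5 libraries for 18.1% of genes and below them for 3.49%. Among the calls, 119 of the 280 higher and 31 of the 40 lower genes had a mean of at least 10 TPM at either age. The share of all genes at that level was not counted. The median change of all genes was 0.11, and scaling the libraries to one another moved it to -0.0165 (median-of-ratios) or -0.0296 (quantile). With these scalings the calls were 187 higher and 56 lower, and 105 higher and 70 lower, so the share of higher calls fell from 87.5% to 77% and 60%. With the replicate number as a block, 15 genes were higher and 1 was lower, and all 16 were among the 320 calls. That fit has 2 residual degrees of freedom, and it sets E17.5 replicate 4 aside because no E15.5 library shares its number. Of 79 called genes followed across the fits, the block kept Grp, Slco1c1, Stac2, Sox8, Cacng5, Etv5, Slc1a3, Etv4, Camk2b, Calb2 and Crabp1. Their adjusted p in the block fit lay between 0.0482 and 0.0497. The other 68 had adjusted p of 0.054 to 0.252 in it. The 79 include genes added after their values were seen, such as Etv4, and leave out some chosen by the naming rules. Of the 280 higher genes, 256 had an E16.5 mean between the means of the 2 ages, as did 39 of the 40 lower genes. These genes were chosen for a large difference between those ages, so the counts do not test a gradual course. The share over all genes was not counted. The 3 libraries of E16.5 took no part in the contrast.

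**Figure D1:**
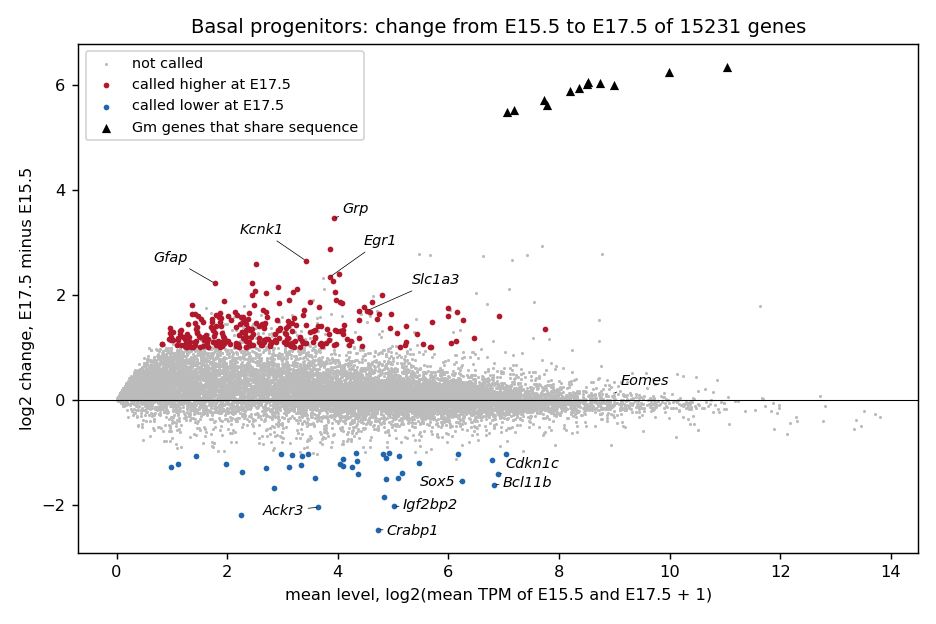
Each point is 1 of the 15231 genes tested, by its mean level (horizontal axis) and its log2 change from E15.5 to E17.5 (vertical axis); red and blue mark the 280 higher and 40 lower calls, and triangles mark 12 Gm genes that share sequence and are among the 280. The triangles lie between 5.49 and 6.34, above every other gene, while Eomes lies near 0.

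The largest rises belonged to a group of repeat-like genes that share sequence. In the GENCODE vM21 annotation of GRCm38, Gm10800 and Gm10801 lie on chromosome 2, Gm21738 on chromosome 14, and the other 9 between chr9:3000922 and chr9:3038316. Between 36.2% and 94.4% of the distinct 31-base runs in a member's transcripts also occur in another member, so reads from the shared stretches cannot be told apart between members, and the values of single members are uncertain to that extent. The run below, from the transcript of Gm10800 (chr2:98666550-98666590, minus strand, 41 bases), occurs in 11 of the 12 members on one strand or the other and is shown because it is what the members share. It belongs to the major satellite, the repeat of mouse pericentromeric chromatin.
Gm10800: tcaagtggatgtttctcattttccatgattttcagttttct

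Gm10800 was at 7.13, 163 and 18.6 TPM at E15.5, and at 4574, 4241, 231 and 7475 TPM at E17.5. All E17.5 libraries lay above all E15.5 libraries, but replicate 3 lay nearer to the highest E15.5 library than to the others of its own age. Its log2 change was 6.34 ± 1.74 (limma, adjusted p = 0.0148), and the 12 members ranged from 5.49 to 6.34 with adjusted p of 0.0143 to 0.0224. The call was lost without E15.5 replicate 1, without E15.5 replicate 3 and without E17.5 replicate 4. Summed TPM of the 12 members varied as widely within some other ages, from 548 to 31230 over the 6 libraries of E14.5 and from 24.1 to 2775 over the 3 of E16.5. The range was narrower in ratio at E12.5 (7384 to 16870 TPM), E13.5 (150.1 to 3934 TPM) and E18.5 (1283 to 4779 TPM). With these 12 genes removed and TPM rescaled, 285 genes were higher and 38 lower, but removal changes the other genes only by that rescaling. With the summed TPM of the 12 as a covariate, 231 genes were higher and 35 lower. Of the 320 calls of the main fit, 221 were also called there. Of 67 followed calls with a value in that fit 13 were lost, among them St18, Sox5, Nhlh1, Egr1 and Camk2b.

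**Figure D2:**
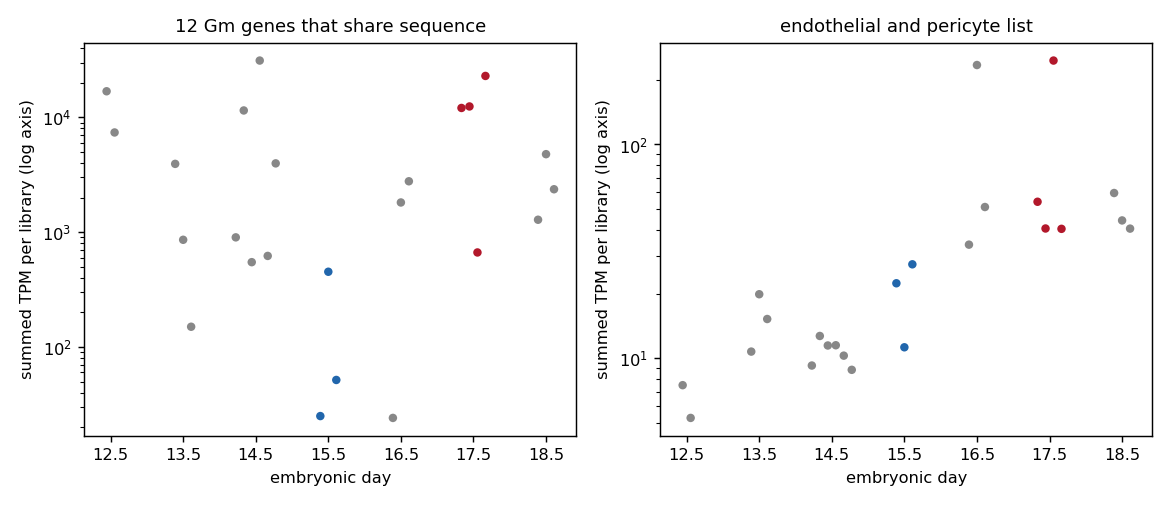
Summed TPM per basal progenitor library, on a log axis, by embryonic day, for the 12 Gm genes that share sequence (left) and the endothelial and pericyte list (right); each point is 1 library, blue is E15.5 and red is E17.5. On the left, the libraries of E16.5 alone run from 24.1 to 2775 TPM; on the right, 1 library of E17.5 (247 TPM) and 1 of E16.5 (235 TPM) stand above the others.

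The largest falls among genes with a mean of at least 10 TPM included Crabp1, Ackr3 and Igf2bp2. Crabp1, a cellular retinoic acid binding protein, was at 37.7, 46.0 and 48.3 TPM at E15.5 and at 6.98, 9.15, 4.72 and 8.14 TPM at E17.5. Every E17.5 library was thus below every E15.5 library, with a log2 change of -2.47 ± 0.50 (limma, adjusted p = 0.00076), and the call held in all the fits made. Igf2bp2, an mRNA-binding protein known from young cortical progenitors, went from 45.6, 55.0 and 52.4 TPM to 15.7, 11.2, 8.57 and 12.3 TPM (-2.03 ± 0.26, adjusted p = 5.64e-07). Its groups did not overlap either, and its day means ran from 103 TPM at E12.5 to 6.37 TPM at E18.5. Its E15.5 and E17.5 means were 52.3 and 15.8 TPM in newborn neurons, and 45.25 and 14.4 TPM in neural stem cells. Ackr3, a scavenging receptor for the chemokine Cxcl12, was at 9.84, 15.9 and 33.0 TPM and then at 3.14, 3.27, 3.03 and 4.59 TPM (-2.04 ± 0.35, adjusted p = 6.63e-05). The E15.5 libraries were spread over a wide range here, all of it above E17.5. St18, Sstr3, Cdh13 and Mfsd2a also fell, by between 1.22 and 1.84 on the log2 scale.

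Of 16 tested members of the deep-layer list, 3 fell and none rose (limma, adjusted p and 2-fold), against 0.263% and 1.84% of all genes. The list's median change was -0.24 beside 0.11 for all genes. In newborn neurons the median of this list was -1.29, and in neural stem cells it was -0.36. Bcl11b (also named Ctip2), which specifies subcerebral projection neurons, was at 146, 186 and 177 TPM at E15.5 and at 67.2, 43.7, 45.9 and 65.9 TPM at E17.5. The highest E17.5 library was below the lowest E15.5 library, and the change was -1.61 ± 0.41 (adjusted p = 0.00783). Sox5, which controls the timing of deep-layer fates, went from 85.1, 120 and 130 TPM to 41.1, 26.2, 41.2 and 41.8 TPM (-1.55 ± 0.35, adjusted p = 0.00262). Fezf2, which acts upstream of Bcl11b, went from 145.2, 163 and 143 TPM to 81.4, 63.5, 56.2 and 69.7 TPM (-1.15 ± 0.36, adjusted p = 0.0334). All 3 genes separated the ages without overlap. Crym had the largest change the other way, with 11.6, 6.87 and 15.3 TPM before and 22.5, 49.0, 35.7 and 48.3 TPM after, and did not pass the test (1.70 ± 0.65, adjusted p = 0.0926). Leaving out 1 library at a time left between 1 and 3 deep-layer calls, fewest without E15.5 replicate 2. Fezf2 stayed called only when the library left out was E17.5 replicate 1.

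Upper-layer genes were not called in either direction (0 of 17). The list's median change was 0.45, and 3 members passed the adjusted p alone, in the higher direction, as did 7.7% of all genes.

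**Figure D3:**
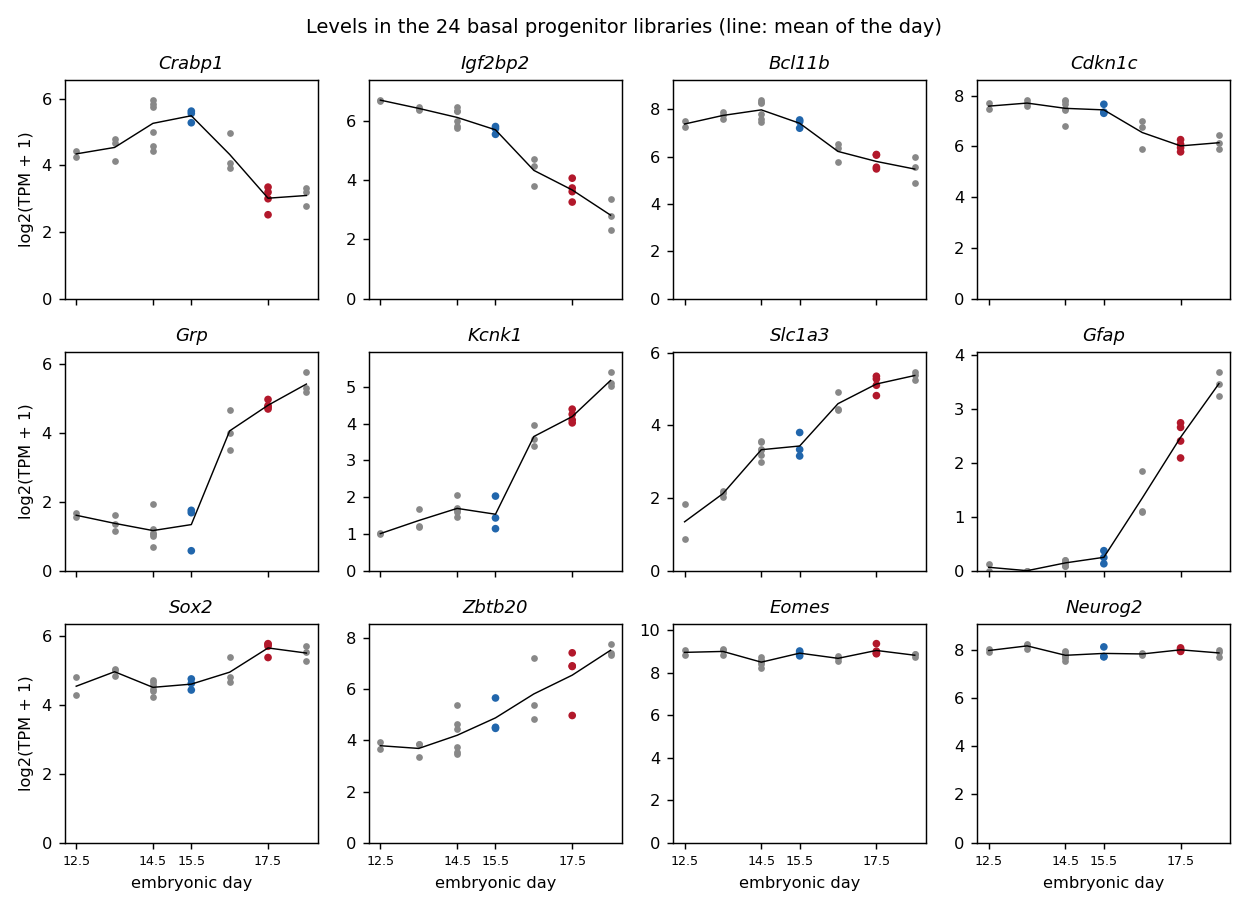
Levels of 12 genes in the 24 basal progenitor libraries as log2(TPM + 1), by embryonic day; each point is 1 library, blue is E15.5, red is E17.5, grey is another day, and the line joins the means of the days. Bcl11b has day means of 259 TPM at E14.5, 170 TPM at E15.5 and 55.7 TPM at E17.5, while Grp goes from 1.69 to 26.8 TPM between E15.5 and E17.5 and Eomes stays level.

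Of 22 tested markers of basal progenitors, 1 was higher and 2 were lower (limma), against 1.84% and 0.263% of all genes, with a median change of -0.05. Neurog2, the main proneural factor of cortical progenitors, was at 275, 206 and 209 TPM at E15.5 and at 241, 257, 267 and 246 TPM at E17.5, within the same range (0.15 ± 0.28, adjusted p = 0.832). Neurod1, a later neuronal differentiation factor, overlapped as well (-0.09 ± 0.30, adjusted p = 0.915). Neurog1, a second proneural factor, fell from 12.4, 14.4 and 14.3 TPM to 5.73, 7.51, 4.25 and 7.71 TPM (-1.04 ± 0.27, adjusted p = 0.0112). Nhlh1, a helix-loop-helix factor of newly formed neurons, fell from 180, 134.8 and 217 TPM to 89.8, 84.2, 86.0 and 78.0 TPM (-1.03 ± 0.33, adjusted p = 0.0406). Both separated the ages without overlap, but both changes are close to the 2-fold limit. Neurog1 was not called without E15.5 replicate 2 or 3 or without E17.5 replicate 3, and Nhlh1 only stayed called when the library left out was E17.5 replicate 1. Tac2, which encodes neurokinin B, rose from 10.2, 4.39 and 3.08 TPM to 30.2, 23, 24.7 and 15.1 TPM (1.91 ± 0.26, adjusted p = 1.62e-06), and it was listed at 0 TPM in the basal progenitors of E12.5 and E13.5.

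Notch pathway genes gave 1 call in 20 (limma), a fall, against 0.263% of all genes for falls. Hey1, a transcriptional target of the pathway, was at 47.1, 37.5 and 62.7 TPM at E15.5 and at 15.6, 16.2, 18 and 16.6 TPM at E17.5, well apart (-1.48 ± 0.23, adjusted p = 2.1e-05). Dll1, a ligand that progenitors present to their neighbours, went from 55.3, 41.2 and 68.5 TPM to 24.2, 26.7, 26.8 and 29.4 TPM (-0.99 ± 0.16, adjusted p = 2.95e-05). Its groups did not overlap, but it missed the 2-fold limit, and it is named here after its values were seen. Hes5 was not called (0.36 ± 0.42, adjusted p = 0.69). Dll4 had the largest change the other way and also missed the 2-fold limit (0.845, limma adjusted p = 0.00206). The list's median change was 0.17 beside 0.11 for all genes, with 13 members positive and 7 negative.

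Radial glial genes gave 3 rises and no fall among 22 tested (limma), against 1.84% of all genes for rises, with a median change of 0.50 beside 0.11 for all genes. Sox2, a factor that maintains neural progenitors, was at 23.5, 20.5 and 25.8 TPM at E15.5 and at 53.4, 40.2, 52.6 and 50.7 TPM at E17.5. The ages did not overlap, and the change was 1.05 ± 0.26 (adjusted p = 0.00732). Slc1a3, the glutamate transporter GLAST of radial glia and astrocytes, rose from 12.9, 7.90 and 9.07 TPM to 39.7, 27.1, 37.7 and 33.3 TPM (1.70 ± 0.26, adjusted p = 1.45e-05). Tnc, an extracellular matrix glycoprotein, rose from 1.45, 0.622 and 1.22 TPM to 7.41, 5.05, 14.3 and 6.23 TPM (2.07 ± 0.36, adjusted p = 0.000112). Both were higher in 4 of 4 libraries than in any of E15.5. Pax6, another radial glial factor, was not called (0.48 ± 0.29, adjusted p = 0.323), and Vim had the largest opposite change (-0.34 ± 0.22, adjusted p = 0.38).

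Of 20 tested astrocyte genes, 6 rose, among them Gfap, Aldh1l1, Slc1a3, Sparcl1 and Tnc, and none fell (limma), against 1.84% of all genes. The median change was 0.83, beside 0.92 for this list in newborn neurons and 0.73 in neural stem cells. Gfap, the intermediate filament of astrocytes, was at 0.185, 0.293 and 0.0931 TPM at E15.5 and at 5.31, 3.26, 5.70 and 4.30 TPM at E17.5. Aldh1l1, a folate enzyme used as an astrocyte marker, went from 0.345, 0.157 and 0.280 TPM to 1.85, 2.15, 2.90 and 1.80 TPM. Neither gene overlapped between the ages, with changes of 2.23 ± 0.27 (adjusted p = 7.34e-08) and 1.32 ± 0.28 (adjusted p = 0.00164), but both remained low in TPM. Sparcl1, a secreted matrix protein, went from 7.84, 11.3 and 8.11 TPM to 42.0, 26.2, 84.7 and 24.2 TPM (2.00 ± 0.31, adjusted p = 1.5e-05), and the highest value was in E17.5 replicate 3. Leaving out 1 library at a time left 6 or 7 astrocyte calls, and the block on replicate number left 1, Slc1a3. Under the block the radial glial, oligodendrocyte and endothelial lists also kept 1 call each, and the deep-layer, basal progenitor and late temporal lists 0. In bulk RNA, a few more cells of a type and more RNA of that type in each cell cannot be told apart.

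Oligodendrocyte-lineage genes gave 3 rises among 15 tested (limma), against 1.84% of all genes, with a median of 0.29. Sox8, a SoxE factor of glial precursors, went from 0.783, 0.483 and 1.498 TPM to 9.21, 6.33, 9.99 and 6.41 TPM (2.24 ± 0.28, adjusted p = 2.26e-07). Egfr, a receptor of late progenitors, went from 0.347, 0.275 and 0.299 TPM to 2.37, 1.48, 3.79 and 5.24 TPM (1.6 ± 0.26, adjusted p = 2.7e-05). Olig1, a lineage factor, reached 0.945 to 2.57 TPM from at most 0.112 TPM (1.36 ± 0.39, adjusted p = 0.0214). All 3 were higher in every E17.5 library than in any of E15.5.

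Late temporal genes, which mark older progenitors, gave 2 rises in 15 (limma), Tnc and Zbtb20, against 1.84% of all genes. Zbtb20, a zinc finger factor of late progenitors and astrocytes, was at 49.6, 21.8 and 21.2 TPM at E15.5 and at 120, 30.5, 118 and 171 TPM at E17.5. Replicate 2 of E17.5, the library with the negative length correlation, lay inside the E15.5 range, and the change was 1.67 ± 0.49 (adjusted p = 0.0229). Nfia, a gliogenic factor, was not called (-0.60 ± 0.42, adjusted p = 0.431) and was lowest in the same library, at 33.1 TPM against 79.0 to 93.9 TPM in the other 3. Without that library 4 late temporal genes rose, and with the length correlation as a covariate 4 did as well.

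**Figure D4:**
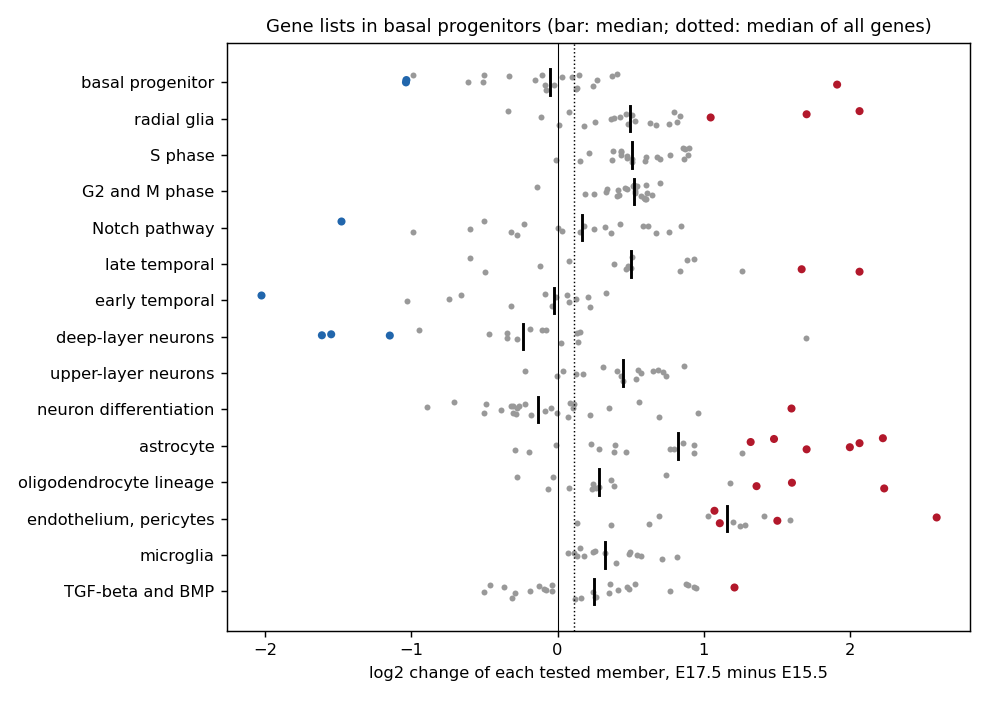
Log2 change from E15.5 to E17.5 of each tested member (points) of 15 gene lists (rows), with the median of each list as a bar and the median of all genes, 0.11, as a dotted line; red and blue points were called higher and lower. The 6 astrocyte calls lie right of 1, the 3 deep-layer calls lie left of -1, and neither cell cycle list has a call.

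Cell cycle genes of the S, G2 and M phases gave no call. Of 22 S phase genes, 0 were called (limma), 17 had all E17.5 libraries above all E15.5 libraries, against 18.1% of all genes, and 8 passed the adjusted p alone, against 7.7%. Mcm6, a subunit of the replicative helicase, was at 47.8, 41.5 and 57.5 TPM at E15.5 and at 78.9, 82.4, 91.5 and 105 TPM at E17.5 (0.86 ± 0.20, adjusted p = 0.0041), and was picked for its small adjusted p. The 24 G2 and M phase genes gave 0 calls and 0 at the adjusted p alone, with a median change of 0.53. Mki67, a marker of cycling cells, was at 28.9, 26.9 and 37.4 TPM and then at 49.0, 11.1, 40.4 and 68.1 TPM, with replicate 2 of E17.5 below every E15.5 library (0.19 ± 0.54, adjusted p = 0.895). Leaving that replicate out gave no G2 and M phase call either.

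Regulators of the G1 phase gave 2 rises and 1 fall in 19 (limma), against 1.84% and 0.263% of all genes. Cdkn1c (p57), an inhibitor that promotes cell cycle exit, was at 157, 162 and 201 TPM at E15.5 and at 66.7, 75.9, 60.7 and 54.0 TPM at E17.5. The 2 ages were far apart, with a change of -1.42 ± 0.28 (adjusted p = 0.00066). Cdk6, a kinase that drives G1 progression, went from 9.34, 6.60 and 7.49 TPM to 23.2, 11.4, 23.9 and 29.4 TPM (1.32 ± 0.39, adjusted p = 0.0235). Cdkn2c (p18), an inhibitor of that kinase, went from 8.67, 7.49 and 10.8 TPM to 19.6, 19.9, 23.3 and 29.7 TPM (1.26 ± 0.26, adjusted p = 0.00133). Neither of the last 2 overlapped between the ages.

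Outside the lists, Grp, which encodes the neuropeptide gastrin-releasing peptide, rose most among genes with at least 10 TPM other than the Gm group. It was at 2.36, 2.21 and 0.492 TPM at E15.5 and at 24.8, 30.2, 25.8 and 26.6 TPM at E17.5, a tight group far above the first (3.46 ± 0.39, adjusted p = 2.27e-08). Kcnk1, a leak potassium channel, went from 3.08, 1.70 and 1.21 TPM to 16.2, 15.2, 18.1 and 20.04 TPM (2.66 ± 0.26, adjusted p = 7.83e-10). Cacng5, an auxiliary subunit of AMPA receptors, went from 6.26, 4.89 and 3.93 TPM to 24.5, 22.9, 25.1 and 22.3 TPM (2.05 ± 0.23, adjusted p = 1.04e-08). All 3 genes separated the ages by more than the spread within either. Zfp385b, Rerg, Lsamp, Tmem132b, Ptx3, Dhrs3, Etv5, Lhfpl2, Gfra2 and Mfge8 rose by 1.77 to 2.15. Egr1, an immediate early gene that dissociation can induce, was at 3.48, 1.13 and 2.80 TPM and then at 6.82, 49.96, 37.1 and 4.24 TPM (2.34 ± 0.63, adjusted p = 0.0137), with 2 of the 4 libraries only just above E15.5. It was the 1 call among 20 immediate early genes, against 1.84% of all genes for rises, and their median change was 0.79. Xkrx (82.0 TPM), F830016B08Rik (91.2 TPM) and H2-Q4 (71.0 TPM) were each highest in E17.5 replicate 4, and each lost its call without that library. The first 2 also lost it without any 1 of the E15.5 libraries or without E17.5 replicate 2.

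Genes of neuronal function moved both ways. In the neuron differentiation list 1 of 26 rose and 0 fell, and in the synapse list 2 of 23 rose and 1 fell (limma). Over all genes, 1.84% rose and 0.263% fell. Camk2b, a synaptic kinase subunit, went from 28.4, 30.3 and 32.5 TPM to 82.6, 92.4, 91.5 and 111 TPM (1.6 ± 0.44, adjusted p = 0.0143). Gria1, an AMPA receptor subunit, went from 8.54, 9.36 and 7.10 TPM to 27, 19.04, 24 and 27.5 TPM (1.44 ± 0.35, adjusted p = 0.00573), and Grin1, an NMDA receptor subunit, rose by 1.06 ± 0.32 (adjusted p = 0.0271). Slc17a7, the vesicular glutamate transporter VGLUT1, fell from 37.8, 38.6 and 49.5 TPM to 15.2, 15.3, 10.4 and 16.0 TPM (-1.5 ± 0.40, adjusted p = 0.0126). None of these 4 genes overlapped between the ages. Ion channel genes (0 of 19) and axon guidance genes (0 of 26) gave no call, and 2 and 0 of them passed the adjusted p alone in the higher direction. Neurod6, a factor of postmitotic excitatory neurons, was at 1162 to 1699 TPM and then at 760 to 1017 TPM and was not called (-0.71 ± 0.52, adjusted p = 0.451).

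Signalling lists gave few calls, beside 1.84% of all genes higher and 0.263% lower. Of 28 TGF-beta and BMP genes 1 rose and 0 fell (limma), and of 20 genes of SKI partners 0 were called, with 0 at the adjusted p alone and a median of -0.01. Id1, a BMP target, went from 1.88, 1.6 and 2.37 TPM to 4.33, 4.71, 11.4 and 4.55 TPM (1.2 ± 0.29, adjusted p = 0.00522), and its highest value was in E17.5 replicate 3. In the Wnt list 1 of 20 rose, Dkk3, a member of the Dickkopf family (1.63 ± 0.22, adjusted p = 1.56e-06). In the migration list of 18 Ackr3 fell and Cxcr4, the signalling receptor for the same chemokine, rose from 50.9, 23.5 and 27.5 TPM to 77.3, 48.9, 73.9 and 67.6 TPM (1.02 ± 0.21, adjusted p = 0.00103), with 1 E17.5 library inside the E15.5 range. Egln3, an oxygen-sensing hydroxylase, was the 1 rise among 18 hypoxia and glycolysis genes (1.59 ± 0.31, adjusted p = 0.000519).

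Markers of cell types outside the sort were checked, beside 1.84% of all genes called higher by the same rule. Of 14 tested endothelial and pericyte genes 4 rose (limma), and the median change was 1.16. Slco1c1, a thyroid hormone transporter that is also known from glia, was at 0.764, 0.556 and 0.543 TPM and then at 8.98, 6.45, 11.2 and 9.09 TPM (2.59 ± 0.27, adjusted p = 6.16e-09). The other 3 calls, Ramp2, Rgs5 and Flt1, were highest in E17.5 replicate 3, at 22.8, 12.01 and 11.4 TPM, and without that library, or without E15.5 replicate 2, only 1 call was left. Microglial genes gave 0 calls in 15, at 5.85 to 8.16 summed TPM and then 8.26 to 17.54 TPM. Of 20 interneuron genes Prox1 was called (1.70 ± 0.43, adjusted p = 0.00773), and of 10 Cajal-Retzius genes Calb2 (1.48 ± 0.44, adjusted p = 0.0271) and Ndnf (1.89 ± 0.31, adjusted p = 3e-05). None of 9 erythroid genes was called, but 4 haemoglobin genes of the adult type had changes of 2.67 to 2.94 with adjusted p of 0.072 to 0.12. Summed interneuron markers were at 43.4 to 89.4 TPM and then at 85 to 149 TPM, and 1 endothelial and 2 microglial markers were at 0 in every E15.5 library. Meningeal and choroid plexus genes gave 0 calls in 10 and 8. The part of these cell types in the results was not tested. The erythroid sum was 42.5, 55.1 and 587 TPM at E15.5 and 224 to 1662 TPM at E17.5.

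The change of basal progenitors was then set against that of the other cell types, which share the ages but no libraries with it. Against newborn neurons, the difference between the 2 changes was called for 152 genes, 0.998% of those tested (limma), with 117 higher (0.768%) and 35 lower (0.23%). Of these, 27 were called in basal progenitors only, 74 in newborn neurons only, 5 in both and 46 in neither. This fit does not pair libraries by number, and a block on number within each day gave 267 genes. Cdkn1c fell in basal progenitors, whereas in newborn neurons its mean was 89.9 ± 3.94 TPM at E15.5 and 120 ± 10.2 TPM at E17.5 (SD, n = 3 and 4), a difference between the changes of -1.83 ± 0.40 (adjusted p = 0.00552). Stac2, an adaptor of calcium channels, rose from 4.58, 4.42 and 3.07 TPM to 31.9, 24.8, 28.2 and 11.9 TPM in basal progenitors, while newborn neurons went from 13.3 ± 0.514 to 9.56 ± 1.65 TPM (2.71 ± 0.47, adjusted p = 0.000321). Lsamp, a neuronal adhesion molecule, rose in basal progenitors, to 13.9 ± 4.50 TPM, and stayed above that in newborn neurons, at 35.8 ± 7.52 and 30.7 ± 11.1 TPM (2.33 ± 0.44, adjusted p = 0.00117). Only Stac2 among these 3 ended higher in basal progenitors than in newborn neurons.

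Several of the largest differences came from genes that were called in newborn neurons and not in basal progenitors. Rgs16, an inhibitor of G protein signalling, averaged 30.2 ± 3.40 and 22.2 ± 3.03 TPM in basal progenitors and fell from 89.9 ± 13.4 to 10.5 ± 2.10 TPM in newborn neurons (2.56 ± 0.24, adjusted p = 9.02e-10). Dpf3, a chromatin remodelling subunit (3.06 ± 0.53, adjusted p = 0.000321), and Nxph3, a neurexin ligand (2.37 ± 0.50, adjusted p = 0.00457), fell in newborn neurons by 2.09 and 1.62 and were not called in basal progenitors. In the other direction, Kif26b, a kinesin-like protein (-2.46 ± 0.39, adjusted p = 7.95e-05), Fat1, an atypical cadherin (-2.05 ± 0.33, adjusted p = 8.35e-05), and Cdh8, a cadherin (-1.78 ± 0.44, adjusted p = 0.0199), rose in newborn neurons and were not called in basal progenitors. 9930013L23Rik fell in basal progenitors (-1.27 ± 0.32, adjusted p = 0.00685) and differed by -1.91 ± 0.45 (adjusted p = 0.0131). Rgs6 and Spats2l were the 2 genes called in opposite directions in the 2 cell types, higher in basal progenitors by 1.22 ± 0.33 and 1.1 ± 0.27 (adjusted p = 0.0137 and 0.00683).

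Against neural stem cells, 3 genes were called, 0.0197% of those tested (limma). Bmper, a secreted modulator of BMP signalling, went from 3.75, 2.36 and 2.47 TPM to 11.1, 9.20, 11.4 and 8.56 TPM in basal progenitors, with no overlap, and averaged 9.87 ± 2.27 and 8.58 ± 2.73 TPM in stem cells (difference 1.73 ± 0.32, adjusted p = 0.0422). Sox8 differed by 2.05 ± 0.41 (adjusted p = 0.0458), with stem cells already at 15.9 ± 5.91 TPM at E15.5. Cldn1, a tight junction claudin, stayed under 1 TPM in all 7 basal progenitor libraries and differed by -1.69 ± 0.34 (adjusted p = 0.0458). These calls depended on single libraries. Leaving out 1 library gave 0 genes in 8 of 13 cases and 1 gene in another, and the replicate block, the Y-linked covariate and the fit to the libraries of the contrast alone also gave 0. The count was 91 without stem cell replicate 2 of E15.5 and 31 without stem cell replicate 3 of E17.5. Of the 280 higher genes, 83 were also called higher in stem cells, where 2.41% of all genes were, and 58 in newborn neurons, where 1.74% were. Of the 40 lower genes, 14 were also lower in stem cells (0.479% of all genes) and 20 in newborn neurons (1.13%).

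**Figure D5:**
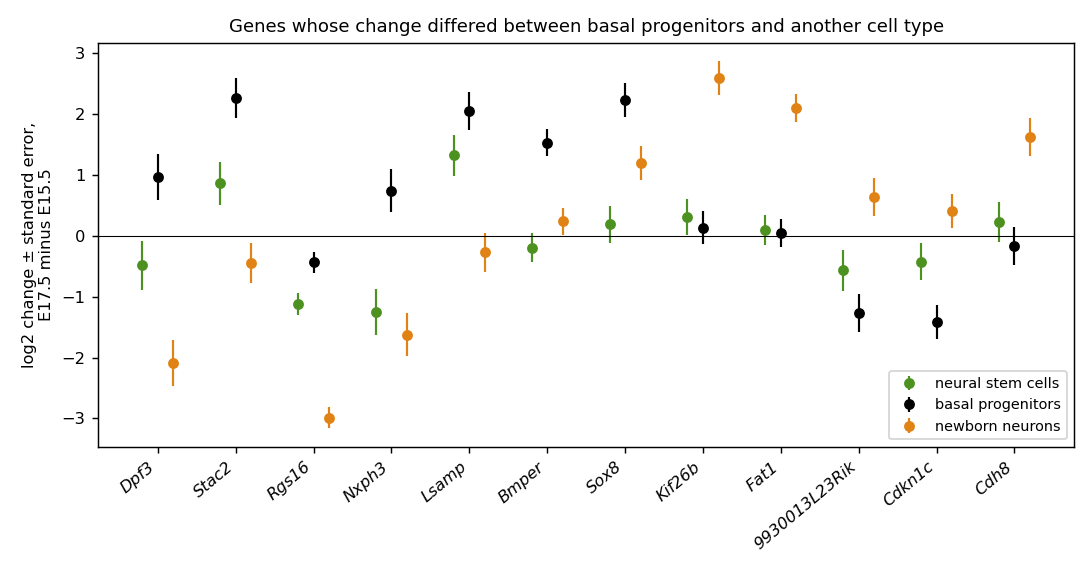
Log2 change from E15.5 to E17.5 with its standard error in neural stem cells (green), basal progenitors (black) and newborn neurons (orange), for 12 genes whose change differed between basal progenitors and one of the others. Stac2 and Bmper are highest in basal progenitors, while Rgs16, Kif26b and Fat1 are near 0 there and far from it in newborn neurons.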

How the data were processed

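RNA was taken from sorted cells of dissected dorsal cortex and sequenced from one end on a HiSeq instrument, according to the labels' protocols. The submitters' processing notes name kallisto 0.43.0 and GRCm38.p2 (mm10). What the authors deposited is TPM for each gene, a unit that keeps no depth, so no counting error or detection limit could be given. Precision rests on the spread between libraries.

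From these TPM, log2(TPM + 1) was computed, a gene was kept if 3 or more of the 63 libraries reached 1 TPM, and 1 mean for each of 19 groups was fitted with limma 3.58.1 in R 4.3.3, with a variance trend. The test was checked on simulated data with independent normal noise for each gene and library. That check cannot show how the test behaves where whole libraries deviate together, because no such deviation was simulated. A call needed an adjusted p (Benjamini-Hochberg) below 0.05 together with a change of 1 or more on the log2 scale. Transcript lengths, matched for 15023 of 15231 genes, and the Gm sequence are from GENCODE vM21.

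Named are the 10 genes of largest change in each direction among calls with a mean of at least 10 TPM (5 for differences between cell types), up to 5 calls and the largest opposite change of a list, and a fixed set of 12 genes. The 20 largest rises outside the Gm group, the 20 largest falls, and genes said to be so were added after their values were seen. Not every gene so chosen is printed, and some are not reported here. The comparison, gene lists and rules were chosen with earlier results of these data known. Motif counts in promoters of G2 and M phase genes, planned if those genes moved together, were not made because 0 were called.

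Replicate numbers come from the sample titles. Same-numbered E15.5 and E17.5 libraries deviated weakly together from their group means, with correlations of 0.128, 0.171 and 0.12. Both libraries of a number correlated best with each other for 2 of 3 numbers. Whether the numbers pair libraries of different ages is not known. The block on number was therefore fitted as an alternative, and the main calls rest on the fit without it. Alternatives were other pseudocounts, filters and scalings, library weights, only the libraries of a contrast, a Y-linked covariate, the replicate block and leaving out each library. Added after seeing the data were removal of the Gm group, its sum as a covariate, the length correlation as a covariate, and a block within each day.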

Additional observations from a re-analysis of the deposited data

Results flagged for a closer look

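In 17 of 142 sets of 4 values (the E17.5 libraries, for each named gene and each list sum), 1 library lay apart from the other 3 by Dixon's criterion at its 95% limit. Chance gives about 1 in 20 such sets of normal values. The 142 sets come from the same 4 libraries and overlap in genes, so the 17 cannot be read as an excess.

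E17.5 replicate 3 was lowest for Gm10800 (230.6 TPM), Gm11168 (20.93 TPM), Gm10720 (13.61 TPM) and Slc17a7 (10.43 TPM). It was highest for Id1 (11.37 TPM), Dkk3 (15.96 TPM), Rgs5 (12.01 TPM) and the summed endothelial and pericyte list (246.8 TPM, against 40.33 to 53.98 TPM in the other 3). Replicate 2 was lowest for Sox5 (26.16 TPM), Tmem132b (8.231 TPM), Prox1 (12.79 TPM), Nfia (33.09 TPM), the axon guidance sum (1926 TPM) and the migration sum (2626 TPM). Replicate 1 was highest for Neurod6 (1017 TPM) and the deep-layer sum (791.5 TPM), and replicate 4 for Hmga2 (1.033 TPM), an early progenitor gene.

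The change from E15.5 to E17.5 differed from that in newborn neurons, by limma's test of the difference, for 23 of the genes named. The signed difference, the log2 change in basal progenitors minus that in newborn neurons, was positive for Dpf3 (3.056), Rgs6 (2.71), Stac2 (2.707), Rgs16 (2.558), Nxph3 (2.368), Lsamp (2.329), Spats2l (2.164), Gria1 (2.071), Gfra2 (1.994), Sparcl1 (1.807), Tac2 (1.733), Kcnk1 (1.678), Neurog2 (1.46), Neurog1 (1.426), Bmper (1.289) and Cacng5 (1.265). It was negative for Kif26b (-2.459), Fat1 (-2.053), 9930013L23Rik (-1.905), Cdkn1c (-1.831), Cdh8 (-1.782), Fzd1 (-1.549) and Mfsd2a (-1.166). In newborn neurons the proneural factors went down, Neurog2 from 80.3 ± 31.04 to 30.0 ± 3.36 TPM and Neurog1 from 8.73 ± 2.64 to 0.727 ± 0.173 TPM (SD, n = 3 and 4). Tac2 was at 0 TPM in the newborn neurons of E15.5 and at most 0.223 TPM at E17.5. Fzd1, a Wnt receptor, had non-overlapping groups in basal progenitors, 94.4, 87.1 and 108 TPM and then 49.2, 53.6, 49.9 and 56.9 TPM, but missed the 2-fold limit (-0.87 ± 0.18, limma adjusted p = 0.00109). Against neural stem cells the difference was called for Sox8 (2.05), Bmper (1.728) and Cldn1 (-1.694).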

How the results depend on the processing

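Against 280 higher and 40 lower genes, the counts were 709 and 60 with a pseudocount of 0.1, 69 and 17 with 5, 148 and 33 with a mean of at least 5 TPM, 105 and 70 with quantile scaling, 446 and 45 with library weights, 182 and 32 with only the libraries of the contrast, and 15 and 1 with the replicate block. Without 1 library they ranged from 170 (without E15.5 replicate 2) to 422 (without E17.5 replicate 2) higher and from 18 (without E15.5 replicate 3) to 42 lower. Of the 79 called genes followed across the fits, 8 stayed called in every fit that gave them a value, and none changed sign. Among calls printed above, F830016B08Rik lost its call in 15 of the 20 other fits, Xkrx in 14, Cxcr4 in 11 and Nhlh1 in 10. Grin1 lost it in 9 of 20, Calb2 in 8, Fezf2, Egr1 and Cdk6 in 7 each, and Zbtb20 and Ramp2 in 6 each. Flt1 lost it in 12 of 19, Olig1 in 8 and Rgs5 in 7. With the block on replicate number, 0 genes differed from neural stem cells.

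The 3 genes that differed from neural stem cells became 7 with a pseudocount of 5, 1 with quantile scaling, 104 with library weights, 31 with the length covariate, 0 without the filter, with only the libraries of the contrast, and with the Y-linked or Gm-sum covariate, and 0 to 91 without 1 library. The 152 that differed from newborn neurons became 94 with a pseudocount of 5, 95 with a mean of at least 5 TPM, 515 with library weights, 267 with a block on number within each day, and 101 to 176 without 1 library. Same-numbered basal progenitor and newborn neuron libraries of a day correlated at 0.145 to 0.604 in 6 of 7 cases. For number 4 of E17.5 the correlation was -0.149. Libraries of a number and day may thus be paired, which the fit behind the 152 genes leaves out. The labels do not say whether they share embryos.

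Some log2 changes of uncalled genes changed sign. The log2 change of Kif26b was -0.00336 and the log2 change of Eomes -0.0186 with median-of-ratios scaling. The log2 change of Fat1 was -0.118 with quantile scaling, -0.0965 with median-of-ratios scaling, -0.0423 with the block and -0.165 to 0.195 without 1 library. With quantile scaling the log2 change of Hes5 was -0.00866 and the log2 change of Cldn1 -0.223. With the block the log2 change of Mki67 was -0.12 and that of Cldn1 -0.0756, and without 1 library they were -0.12 to 0.719 and -0.0756 to 0.121. The log2 change of Neurod1 was -0.2146 to 0.157 without 1 library. With the Gm-sum covariate the log2 change of Cdh8 was 0.156, that of Eomes -0.0723 and that of Neurod1 0.191. The Gm genes have no value under that covariate, which is their sum. The cause was not tested. Depth is unknown, so low values such as those of Olig1 carry an unstated counting error.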

Other observations

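Genes outside the lists were looked at after their values were seen, and are given as values only. Crabp2, the second cellular retinoic acid binding protein, fell together with Crabp1, from 9.39, 7.59 and 13.0 TPM to 3.21, 2.01, 2.14 and 2.24 TPM (-1.68 ± 0.35, limma adjusted p = 0.00136). Dhrs3, which reduces retinaldehyde and so limits retinoic acid, rose from 14.9, 13.4 and 3.35 TPM to 48.5, 37.5, 39.7 and 21.7 TPM (1.87 ± 0.29, adjusted p = 1.99e-05). In all 3 genes every E17.5 library lay on one side of every E15.5 library.

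Etv5, an ETS factor known as a target of FGF signalling, rose from 3.53, 3.79 and 4.17 TPM to 17.3, 19.1, 16.4 and 13.7 TPM (1.86 ± 0.37, adjusted p = 0.000787). Its relative Etv4 rose from 0.513, 0.559 and 0.364 TPM to 3.30, 4.03, 3.17 and 2.72 TPM (1.54 ± 0.31, adjusted p = 0.00076). Neither overlapped between the ages, and both were among the genes kept with the replicate block. Fgfr1, an FGF receptor, went from 98.7, 91.1 and 79.1 TPM to 167, 165.1, 159 and 182 TPM, and Spry2, a feedback inhibitor of the pathway, from 5.75, 6.12 and 8.76 TPM to 11.7, 13.7, 17.1 and 15.8 TPM. Both separated the ages and passed the adjusted p (5e-05 and 0.000377) but not the 2-fold limit, with changes of 0.91 ± 0.15 and 0.99 ± 0.19.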
